A study of Mus musculus with 27 samples.

Results

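The 9 CC chemokine genes Ccl2, Ccl3, Ccl4, Ccl5, Ccl6, Ccl7, Ccl8, Ccl9 and Ccl11 were followed through 27 mouse RNA-seq libraries. The genes were chosen by name, and all 9 were among the 25192 gene symbols of the count table. The libraries came from mouse aortic endothelial cells (MAEC), bone marrow derived macrophages (BMDM) and mouse embryonic fibroblasts (MEF). Imidazole propionate (ImP), which gut bacteria make out of the amino acid histidine, was added to each cell type at 10 µg/mL, and cells were taken after 1 h or 2 h or were left unstimulated (0 h). That made 9 groups of 3 libraries. For the groups, the labels gave no genotype, strain, age or treatment beyond these, no vehicle culture kept for 1 or 2 h, and no animal or culture of origin for any library, so p-values measure only the spread between these libraries, which may be technical.

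CC chemokines are small secreted proteins that draw leukocytes along a gradient by binding receptors of the Ccr family. In atherosclerosis they are best known for bringing monocytes into the artery wall, where Ccl2 acting on Ccr2 is the textbook route. Macrophages, fibroblasts and endothelial cells can all secrete them, and several of the genes are classic early targets of NF-kappa B, AP-1 and interferon signalling. The genes lie in 2 runs on mouse chromosome 11 (GRCm38). On the plus strand, Ccl2 (chr11:82035571-82037453), Ccl7 (chr11:82045712-82047525), Ccl11 (chr11:82057823-82062955) and Ccl8 (chr11:82115185-82116799) formed the first run. The second run began 1410 kb further on, with Ccl5 (chr11:83525778-83530518), Ccl9 (chr11:83572919-83578636), Ccl6 (chr11:83587882-83593087) and Ccl3 (chr11:83647844-83649355) on the minus strand, and Ccl4 (chr11:83662584-83664683) on the plus strand.

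The promoters of Ccl6 and Ccl9 are shown because these neighbouring genes, 9.24 kb apart, were the most abundant of the 9 in macrophages. RefSeq start sites (GRCm38.p6) were given for 4 of the 9 genes, namely Ccl8, Ccl9, Ccl6 and Ccl3. Each sequence runs from 250 bases before to 50 bases after the start of the gene, 5′ to 3′ on the minus strand, at chr11:83593038-83593337 for Ccl6 and chr11:83578587-83578886 for Ccl9. Capitals mark the block in which the 2 sequences aligned to each other.
Ccl6 promoter: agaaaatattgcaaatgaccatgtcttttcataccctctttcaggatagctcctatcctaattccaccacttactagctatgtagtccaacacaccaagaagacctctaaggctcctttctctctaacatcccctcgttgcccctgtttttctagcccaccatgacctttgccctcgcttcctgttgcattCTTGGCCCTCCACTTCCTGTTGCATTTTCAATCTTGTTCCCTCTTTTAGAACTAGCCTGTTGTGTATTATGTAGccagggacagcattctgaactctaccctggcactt
Ccl9 promoter: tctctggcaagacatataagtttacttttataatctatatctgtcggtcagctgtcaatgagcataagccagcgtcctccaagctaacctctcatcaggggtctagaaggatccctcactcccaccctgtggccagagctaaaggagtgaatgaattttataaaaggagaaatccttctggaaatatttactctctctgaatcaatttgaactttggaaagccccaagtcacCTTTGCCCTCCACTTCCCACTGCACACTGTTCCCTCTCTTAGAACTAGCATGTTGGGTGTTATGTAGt
The block covered bases 192 to 265 of the Ccl6 sequence and bases 233 to 299 of the Ccl9 sequence, and 58 of its 74 aligned columns (78.4%) were identical. The other 5 pairs among the 4 promoters aligned over 11 to 17 columns. Motifs were searched on both strands. In the Ccl9 promoter a kappa B type motif, GGG and CC with 5 free bases between them, matched on the opposite strand at bases 216 to 225, and an AP-1 type motif, TGANTCA, matched at bases 198 to 204. Over all 32851 RefSeq promoters of that length, 50.8% held the first motif and 7.81% the second. None of the 4 promoters held an interferon response type motif, GAAA followed after 2 free bases by GAAA again, which 3.44% of all promoters held, and neither of the first 2 motifs matched in the Ccl8, Ccl6 or Ccl3 window.

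Total counts in units of 1e6 were 19 to 61 per MAEC library, 28.8 to 35.6 per BMDM library and 30.6 to 36.5 per MEF library. All 10 macrophage markers checked stood at a mean of at least 10 CPM (counts per 1e6 counts of the library) in BMDM. In the libraries labelled aortic endothelial, only 1 of 10 endothelial markers reached that level, against 8 of 9 fibroblast and 4 of 6 smooth muscle markers, so the label MAEC is used here for the libraries and not as a cell identity. Of the macrophage markers 3 of 10 reached that level in MAEC and 2 of 10 in MEF, of the endothelial markers 3 of 10 in BMDM and 0 in MEF, and of the fibroblast markers 4 of 9 in MEF and 1 of 9 in BMDM. MAEC libraries were made with a low-input kit and the others with a directional kit, so the kit and the cell type cannot be told apart in comparisons with MAEC. In bulk RNA, fewer expressing cells and less RNA per cell cannot be told apart either. The third 1 h and 2 h macrophage libraries stood apart from the others of their groups. Nfkbia, the inhibitor of NF-kappa B that is itself an NF-kappa B target, had 228, 219 and 40.4 CPM in the 1 h BMDM libraries and 44.9, 36.5 and 233 CPM in the 2 h BMDM libraries, against 35.4 to 40.4 CPM at 0 h. The labels number these 2 libraries 23 (1 h) and 22 (2 h), whereas in every other run of codes the 1 h library has the lower number. What this has to do with the values was not tested, and results in macrophages are given with and without both libraries.

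The cell types differed both in how much CC chemokine RNA they held and in which genes supplied it. Together the 9 genes made up 881 ± 137 CPM in MAEC, 1260 ± 73.7 CPM in BMDM and 193 ± 36.8 CPM in MEF (SD over 9 libraries each, all times). In MAEC, 63.2% of the counts of the 9 genes came from Ccl2 and 35.2% from Ccl7. In BMDM, Ccl9 held 48.8% and Ccl6 32.7%. In MEF, Ccl5 held 59.6% and Ccl2 32.2%. The Ccl5 share, for example, did not overlap between MEF and the other cell types, at 50.4 to 65.6% in MEF libraries, against at most 0.271% in MAEC libraries and at most 0.229% in BMDM libraries.

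**Figure D1:**
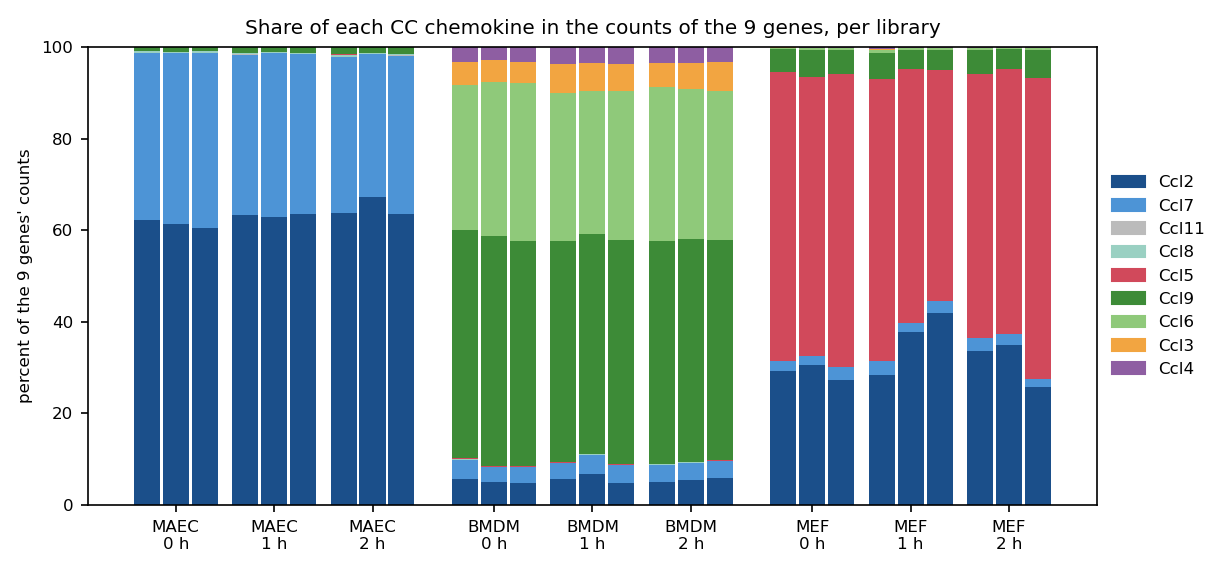
Share of each gene in the counts of the 9 CC chemokine genes, in percent, with 1 stacked bar per library for MAEC, BMDM and MEF at 0, 1 and 2 h. Ccl2 and Ccl7 fill the MAEC bars, Ccl9 and Ccl6 take most of the BMDM bars, and Ccl5 and Ccl2 take most of the MEF bars at every time.

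Ccl2 and Ccl7 encode monocyte attractants that both bind Ccr2. Ccl2 had 472, 488 and 681 CPM in MAEC at 0 h, 75.0, 66.9 and 58.9 CPM in BMDM at 0 h, and 48.2, 61.8 and 41.0 CPM in MEF at 0 h. Ccl7 had 276, 297 and 429 CPM in MAEC at 0 h, 57.6, 43.7 and 44.1 CPM in BMDM at 0 h, and 3.52, 4.18 and 4.38 CPM in MEF at 0 h. Every MAEC library, at every time, lay above every BMDM and MEF library for both genes. The MEF and BMDM groups of Ccl2 formed a continuous run of overlapping ranges, from 50.3 ± 10.5 CPM in MEF at 0 h to 81.1 ± 10.6 CPM in MEF at 1 h (SD, n = 3 each), whereas for Ccl7 all BMDM libraries (41.4 to 57.6 CPM) lay above all MEF libraries (2.38 to 7.44 CPM). Per kilobase of coding transcript, the level of Ccl2 was 1.78 ± 0.160 times that of Ccl7 in MAEC and 1.43 ± 0.127 times in BMDM, but 13.5 ± 3.21 times in MEF (SD over 9 libraries each). An antisense gene, Gm17268, overlaps Ccl2, and the strand setting of the counting is not given in the sources used here.

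Ccl8 and Ccl11 are neighbours of that pair. Ccl11 encodes eotaxin, which attracts eosinophils through Ccr3, and mouse Ccl8 is a ligand of Ccr8. Both were rare in all 27 libraries. Ccl8 had 0.951 to 3.14 CPM in MAEC, 0.412 to 1.32 CPM in BMDM, and 0 to 6 counts per library in MEF. Ccl11 had 0 to 1.06 CPM in MAEC, where 8 of 9 libraries held 12 to 29 counts and the first 0 h library held 0. In BMDM and in MEF only 1 Ccl11 count was found over 9 libraries each. In BMDM at 0 h there was none, which allows up to 0.0308 CPM over the group (3 counts, counting error only).

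Ccl5, which attracts T cells and monocytes, was most abundant in the MEF libraries. It had 104, 123 and 96.5 CPM in MEF at 0 h, 151, 133 and 101 CPM at 1 h, then 117, 114 and 89.6 CPM at 2 h. In BMDM it ranged from 0.587 to 3.06 CPM and in MAEC from 0.0476 to 2.16 CPM, so that every MEF library lay above every library of the other cell types. Among MAEC libraries the spread was wide, with 1 to 84 counts each, and the 6 MAEC and BMDM groups overlapped their neighbours in the order of levels.

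Ccl3 and Ccl4, adjacent genes 13.2 kb apart on opposite strands, encode inflammatory attractants of monocytes and T cells. Ccl3 had 67.7, 64.6 and 57.3 CPM in BMDM at 0 h and Ccl4 had 43.9, 38.6 and 39.5 CPM. In MEF the 9 libraries held 1 to 15 Ccl3 counts and 5 to 33 Ccl4 counts, and in MAEC 0 to 2 counts of each. No MEF or MAEC library of Ccl3 or Ccl4 came near the lowest BMDM library, at 57.3 CPM for Ccl3 and 38.6 CPM for Ccl4. The level of Ccl3 per kilobase was 1.41 ± 0.113 times that of Ccl4 in BMDM (SD over 9 libraries), with a range of 1.25 to 1.61.

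Ccl6 and Ccl9 are rodent genes whose products bind Ccr1. Ccl9 had 668, 670 and 608 CPM and Ccl6 had 421, 446 and 426 CPM in BMDM at 0 h. Over all times, Ccl9 averaged 10.3 CPM in MAEC, 618 CPM in BMDM and 9.88 CPM in MEF, while Ccl6 averaged 0.366 CPM in MAEC, 414 CPM in BMDM and 0.760 CPM in MEF. Both were highest in macrophages, and of the pair only Ccl9 was near 10 CPM elsewhere. The Ccl9 transcript is the longer one (3006 bases against 1440), and per kilobase Ccl6 was the more abundant of the pair in BMDM, where the Ccl9 to Ccl6 ratio was 0.715 ± 0.0227 and lay between 0.683 and 0.759 in all 9 libraries. In MEF the ratio was 7.35 ± 2.88 (SD over 9 libraries) and in the 6 MAEC libraries with more than 3 counts of each gene it was 10.5 ± 3.92 (SD). Of the 31-base words of the Ccl9 transcript, 3.8% also occur in other genes, spread over 1049 of them. For Ccl6 it was 1.28%, in 1 other gene, and no word was shared between any of the 9 genes. Whether reads from those genes add to the Ccl9 counts was not tested. A gene on the opposite strand, E230016K23Rik, overlaps Ccl6.

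**Figure D2:**
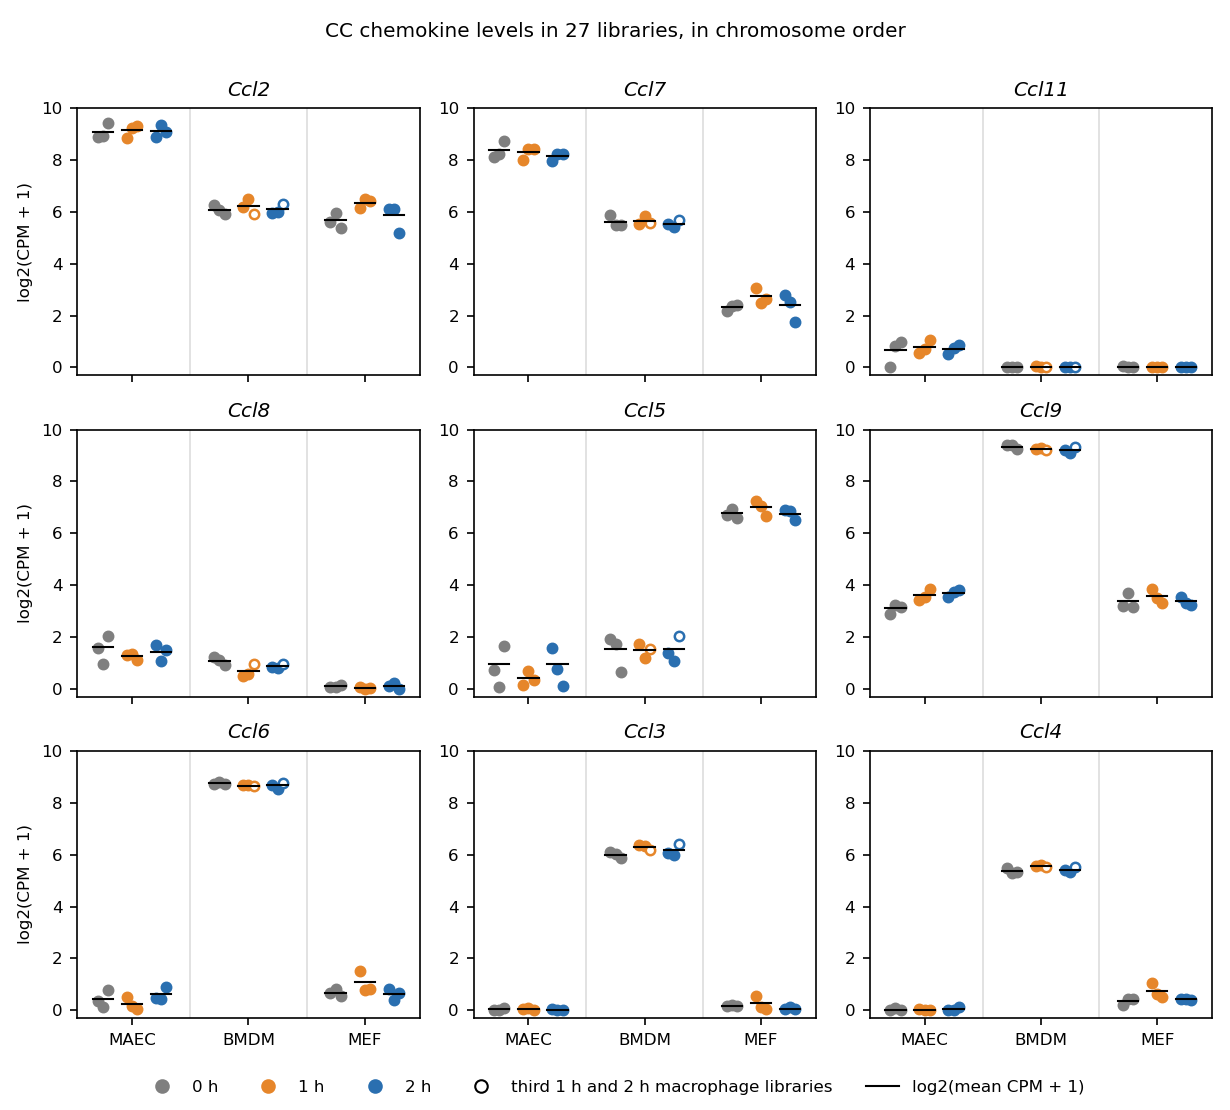
Level of each CC chemokine gene as log2(CPM + 1), in chromosome order, with 1 point per library and a line at the group mean for MAEC, BMDM and MEF at 0, 1 and 2 h (open points mark the third 1 h and 2 h macrophage libraries). Cell types stand far apart for most of the genes, for example with 57.3 to 83.7 CPM of Ccl3 in BMDM libraries and at most 0.481 CPM in any other library, while the times lie close together.

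Unstimulated cell types were compared with edgeR's quasi-likelihood test over all genes, with a call at a Benjamini-Hochberg adjusted p below 0.05. Most genes tested differed between these cells, and members at or near 0 in 1 cell type could enter the test only through the other, so the counts of calls say little and the sizes more. In MAEC against BMDM, 77.4% of the 14524 genes tested were called (39.1% higher, 38.3% lower), and 6 of the 8 CC chemokines tested (2 higher, 4 lower). Ccl2 was 6.77-fold higher in MAEC (log2 2.76, SE 0.19, adjusted p = 1.59e-06) and Ccl7 was 5.73-fold higher (log2 2.52, SE 0.21, adjusted p = 5.08e-06). Ccl9 (log2 -6.70, SE 0.18) and Ccl6 (log2 -10.45, SE 0.40) were lower in MAEC. Ccl3 and Ccl4 were also called lower in MAEC, where the 0 h libraries held 3 and 1 counts in all. For Ccl3 that puts the level in BMDM at 2130 times the level in MAEC, with an exact counting interval of 728 to 10300, and for Ccl4 at 4100 times, with an interval of 735 to 162000. Ccl5 (log2 -1.22, 95% interval -3.50 to 1.07, adjusted p = 0.290) and Ccl8 (log2 0.59, interval -0.69 to 1.87, adjusted p = 0.358) were not called. Leaving out the third MAEC 0 h library, which held 2.16 CPM of Ccl5 against 0.0476 and 0.671 CPM in the others, took Ccl5 to log2 -2.49 (adjusted p = 0.0466). Ccl11 was not tested in any comparison of unstimulated cells.

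In MAEC against MEF, 74.2% of 14499 genes were called (38.1% higher, 36.1% lower) and 4 of 6 members tested (3 higher, 1 lower). Ccl7 showed the larger contrast of the monocyte attractants, at 95.5-fold higher in MAEC (log2 6.58, SE 0.24, adjusted p = 1.02e-07), and Ccl2 was 12.5-fold higher (log2 3.65, SE 0.22). Ccl8 was higher by log2 5.0 (SE 0.76, adjusted p = 3.11e-04) on 7 counts in the 3 MEF libraries. Ccl5 was lower by log2 -6.58 (SE 0.63, adjusted p = 1.69e-05). Ccl9 (log2 -0.10, interval -0.68 to 0.49) and Ccl6 (log2 -0.46, interval -2.27 to 1.35) were not called, so for Ccl9 a difference of more than about log2 0.68 in either direction lay outside the interval.

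In BMDM against MEF, 81.9% of 14182 genes were called (39.8% higher, 42.1% lower) and all 8 members tested, 7 of them higher in macrophages. The differences on the log2 scale were those of Ccl6 (9.90, SE 0.14), Ccl3 (9.29, SE 0.17), Ccl4 (7.57, SE 0.20), Ccl9 (6.52, SE 0.16), Ccl8 (4.33, SE 0.58), Ccl7 (3.99, SE 0.14) and Ccl2 (0.82, SE 0.14, adjusted p = 2.03e-04). Ccl8, Ccl3 and Ccl4 rest on 7, 13 and 28 counts in the 3 MEF libraries and entered the test through BMDM. The values of Ccl8 and Ccl7 do not differ beyond their errors. Ccl5 alone was lower in macrophages, by log2 -5.41 (SE 0.41, adjusted p = 4.75e-05). Ccl2 was thus the member with the smallest difference between these cell types, at 1.77-fold. Its size depended on the processing, with log2 0.412 to 0.976 over the alternatives run. Before scaling between libraries, the mean of Ccl2 was 67.0 CPM in BMDM and 50.3 CPM in MEF at 0 h.

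**Figure D3:**
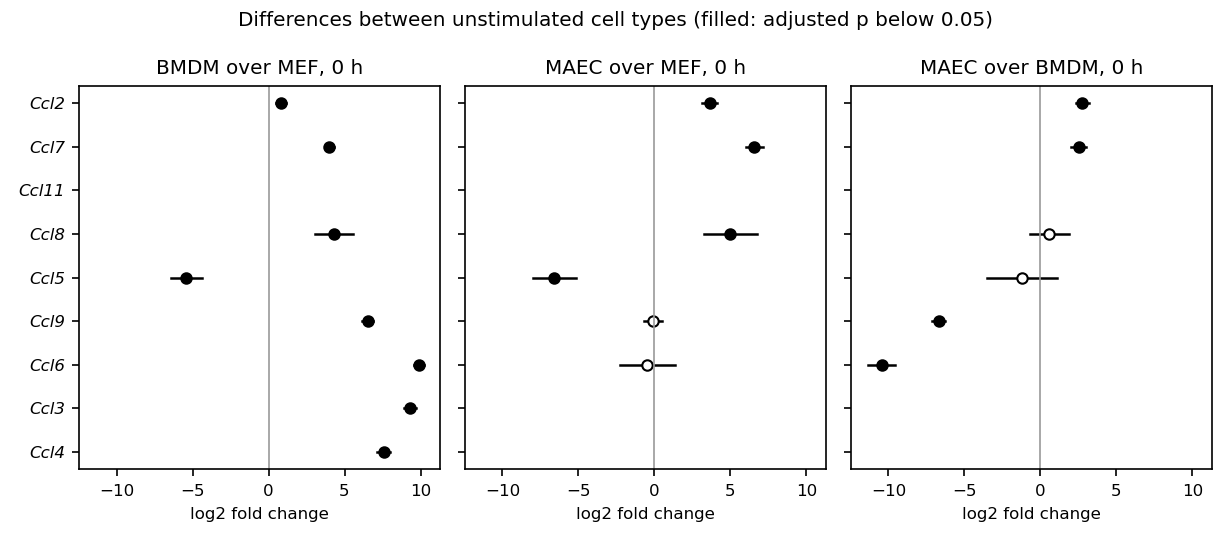
Log2 fold change of each CC chemokine gene between unstimulated cell types with its 95% interval, for BMDM over MEF, MAEC over MEF and MAEC over BMDM (filled points had an adjusted p below 0.05). Ccl2 and Ccl7 lie right of 0 in all 3 panels, Ccl5 lies left of 0 against MEF, and Ccl3 and Ccl4 are not drawn for MAEC over BMDM because the MAEC libraries held 3 and 1 counts.

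Most receptors of CC chemokines were highest in BMDM. In BMDM against MEF 6 of 7 tested receptors were higher and none lower, with Ccr1 at log2 8.56 (SE 0.18). In MAEC against BMDM all 6 tested were lower. Ccr2, the receptor of Ccl2 and Ccl7, averaged 0.00490 CPM in MAEC, 10.2 CPM in BMDM and 0.0223 CPM in MEF. Ccr1, a receptor of Ccl3, Ccl5, Ccl6 and Ccl9, was also present in MAEC, with 18.9 CPM in MAEC (9.80 to 34.2 CPM), 61.0 CPM in BMDM and 0.142 CPM in MEF, and was called higher in MAEC than in MEF (log2 6.54, SE 0.54, adjusted p = 6.55e-06). Of the other CC chemokine genes, 11 were in the table, and the most abundant were Ccl25 (11 CPM in MAEC, 4.86 CPM in BMDM, 15 CPM in MEF) and Ccl27a (8.68 CPM in MAEC, 0.703 CPM in BMDM, 3.49 CPM in MEF), which are better known from thymus, gut and skin. Of these other genes, 2 were lower and 2 higher of 4 tested in MAEC against BMDM, 1 was higher and 1 lower of 4 in MAEC against MEF, and 2 were higher and 3 lower of 5 in BMDM against MEF. Among 18 regulators of chemokine genes (NF-kappa B, interferon and AP-1 factors and mRNA decay factors), 3 were higher and 14 lower in MAEC than in BMDM, with Rel at log2 -4.11, and 11 were higher and 4 lower in BMDM than in MEF, with Irf8 at log2 10.71 and Nfkbiz at log2 -2.70. In MAEC against MEF, 3 were higher and 11 lower of 17 tested, with Nfkb2 at log2 -4.43.

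With ImP, none of the 9 CC chemokine genes was called in any cell type at any time. In BMDM 8 members could be tested (Ccl11 could not), and edgeR called 0 of them at 1 h, 0 at 2 h and 0 between 2 h and 1 h, where 0.0226%, 0.0302% and 0% of all 13251 genes were called. DESeq2 called 12 genes higher and 1 lower at 1 h, 14 higher and 1 lower at 2 h, and 1 lower between 2 h and 1 h. With limma-voom it was 4 higher at 1 h, 3 higher at 2 h and 1 lower between 2 h and 1 h, and neither tool called a member. An unadjusted p below 0.05 in edgeR was reached by 692 genes at 1 h, Ccl3 and Ccl4 among them, by 816 at 2 h, with Ccl9, and by 218 between 2 h and 1 h, with no member.

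Ccl3 had the smallest p of the members in macrophages. It had 82.2, 79.8 and 70.9 CPM in BMDM after 1 h with ImP, against 67.7, 64.6 and 57.3 CPM at 0 h. All 3 libraries at 1 h lay above all 3 at 0 h, and the difference was log2 0.27 (95% interval 0.06 to 0.49, adjusted p = 0.922). Ccl4 did likewise on a smaller scale, with 45.7, 47.1 and 45.3 CPM at 1 h, against 43.9, 38.6 and 39.5 CPM at 0 h (log2 0.16, interval 0.00 to 0.31, adjusted p = 0.922). Ccl6 went the other way without overlap, with 407, 410 and 396 CPM at 1 h, against 421, 446 and 426 CPM at 0 h (log2 -0.12, interval -0.25 to 0.02, adjusted p = 0.942). The share of all genes whose groups separated in this way is not given here, so these separations have no background to be read against.

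The 2 most abundant members and the monocyte attractants differed by small amounts in BMDM. Ccl9 had 610, 629 and 594 CPM at 1 h, against 668, 670 and 608 CPM at 0 h, a difference of log2 -0.11 (interval -0.24 to 0.03). At 2 h it had 592, 545 and 642 CPM, and the difference from 0 h was log2 -0.14 (interval -0.28 to -0.01, adjusted p = 0.786). Ccl2 had 71.7, 88.4 and 59.2 CPM at 1 h, then 61.9, 62.4 and 78.0 CPM at 2 h, with ranges that overlapped those at 0 h (log2 0.10 and 0.00). Ccl7 differed from 0 h by log2 0.00 at 1 h and log2 -0.10 at 2 h. For Ccl2, Ccl3, Ccl4, Ccl6, Ccl7 and Ccl9 the 95% intervals at both times lay between log2 -0.34 and 0.49, so a doubling of any of them lay outside its interval. The rarer members were measured less closely, with Ccl8 at log2 -0.88 (interval -1.78 to 0.03, 13 to 33 counts per library at 1 h) and Ccl5 at log2 -0.06 (interval -1.21 to 1.09) at 1 h.

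More genes outside the list were called in macrophages when the third 1 h and 2 h libraries were left out. Without the third 1 h and 2 h libraries (a choice made with earlier results of these data known), edgeR called 0.928% of 13465 genes at 1 h against 0 h (0.824% higher, 0.104% lower), 0.119% at 2 h against 0 h (0.111% higher, 0.00743% lower) and 0.661% at 2 h against 1 h (0.052% higher, 0.609% lower), and 0 of 8 members in each. An unadjusted p below 0.05 was then reached by 997 genes at 1 h, Ccl3 and Ccl8 among them, by 1043 at 2 h, with Ccl6 and Ccl9, and by 747 between 2 h and 1 h, with Ccl2 and Ccl3. At 1 h, 11 of 18 regulators of chemokine genes were called higher. Among them were Nfkbiz, a nuclear cofactor of NF-kappa B (log2 4.5, SE 0.10, adjusted p = 1.32e-11), and Nfkbia (log2 2.54, SE 0.08). Tnfaip3, an inhibitor of the same pathway (log2 1.90, SE 0.07), and Zfp36, which speeds the decay of cytokine mRNA (log2 1.32, SE 0.06), were others. Of 7 receptors 1 was called higher, Ccrl2, a receptor-like protein that binds chemerin (log2 1.79, SE 0.11, adjusted p = 1.99e-07). With all libraries in the fit, 0 of 18 regulators, 0 of 7 receptors and 0 of 5 other CC chemokines were called at 1 h or 2 h. At 2 h against 1 h without the third libraries, which uses the same 1 h libraries again, 7 regulators and Ccrl2 were called lower. Nfkbia, by which the third libraries were set apart above, is 1 of the regulators. Calls of Nfkbia and of genes that move with it are therefore not independent of leaving those libraries out.

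Library by library, the CC chemokines differed from 0 h by less than the regulators did. Nfkbiz had 134, 134 and 7.15 CPM in BMDM at 1 h, then 6.42, 8.03 and 138 CPM at 2 h, against 5.61, 5.96 and 5.74 CPM at 0 h. Ccl3 was highest in the same 3 libraries, at 82.2 and 79.8 CPM at 1 h and 83.7 CPM in the third 2 h library, which was 1.30, 1.26 and 1.32 times the 0 h mean. Ccl2 in those libraries was 1.07, 1.32 and 1.16 times its 0 h mean, and Ccl4 was 1.12, 1.16 and 1.10 times. Ccl12, a monocyte attractant outside the 9 that lies among the other CC chemokines tested, had 1.78, 2.46 and 1.69 CPM at 1 h, then 1.18, 1.25 and 2.74 CPM at 2 h, against 1.09, 1.32 and 1.31 CPM at 0 h, and was not called (log2 0.73, SE 0.33, adjusted p = 0.662 without the third libraries). Tnf, an inflammatory cytokine named here after its values were seen, had 231, 224 and 18 CPM at 1 h, then 14.3, 18.4 and 268 CPM at 2 h, against 13.7 to 15.4 CPM at 0 h.

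Without the third libraries, Ccl3 at 1 h stood at log2 0.32 (interval 0.16 to 0.49, adjusted p = 0.0898), a larger value than with them that missed the threshold. Ccl2 at 1 h was at log2 0.22 (interval -0.00437 to 0.449, adjusted p = 0.695) and Ccl8 at log2 -1.34 (interval -2.38 to -0.31, adjusted p = 0.467), with 0.412 and 0.491 CPM at 1 h, against 0.881 to 1.32 CPM at 0 h. At 2 h against 1 h, Ccl3 was at log2 -0.31 (interval -0.49 to -0.12, adjusted p = 0.255) and Ccl2 at log2 -0.33 (interval -0.58 to -0.08, adjusted p = 0.623). These values share the 1 h libraries with those at 1 h against 0 h. At 2 h against 0 h, Ccl3 was at log2 0.02 and Ccl9 at log2 -0.20 (interval -0.34 to -0.05, adjusted p = 0.535).

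**Figure D4:**
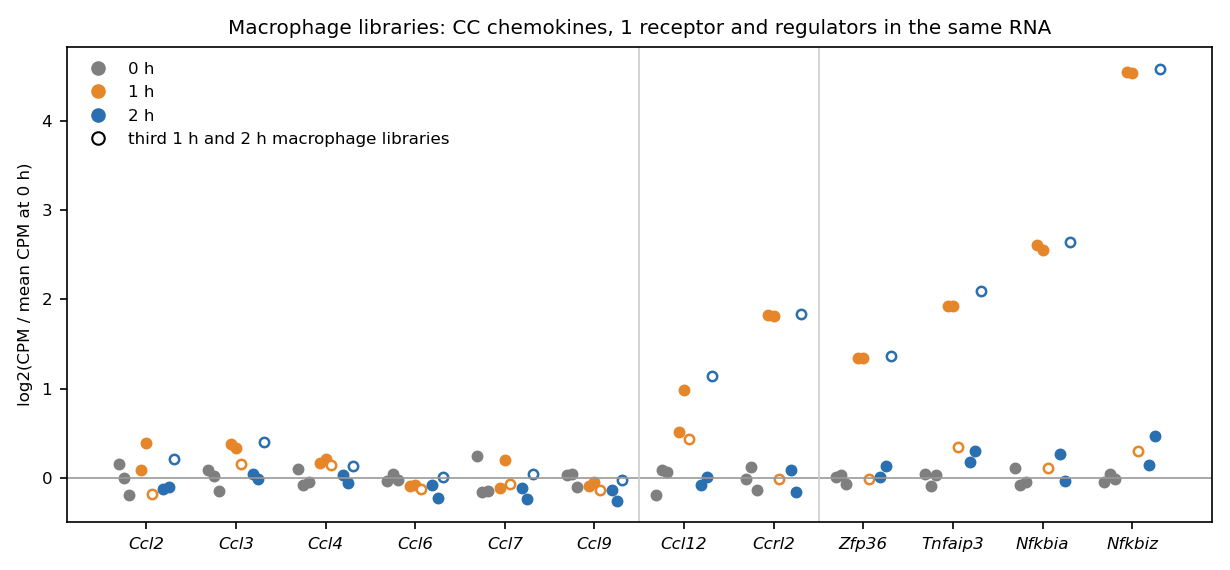
Macrophage libraries at 0, 1 and 2 h as log2 of CPM over the mean CPM at 0 h, 1 point per library, for 6 CC chemokines of the list, Ccl12, the receptor Ccrl2 and 4 regulators (open points mark the third 1 h and 2 h libraries). Both filled 1 h points and the open 2 h point are high for Ccrl2 and the regulators, reaching 138 CPM for Nfkbiz, while Ccl3 in the same libraries is 1.26 to 1.32 times its 0 h mean.

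In MEF 6 members were tested (not Ccl3, Ccl8 or Ccl11) and edgeR called 0 of them at 1 h, 0 at 2 h and 0 between 2 h and 1 h, as it called 0% of all 14066 genes in each. At an unadjusted p below 0.05 stood 826 genes at 1 h, 342 at 2 h and 1709 between 2 h and 1 h. DESeq2 called 9 genes higher and 1 lower at 1 h, 5 higher at 2 h, and 242 higher and 66 lower between 2 h and 1 h, and limma-voom called 0 in each, with no member among the calls of either, and Ccl2 and Ccl4 at 1 h were the members at an unadjusted p below 0.05. Ccl2 had 69.5, 90.2 and 83.8 CPM at 1 h, against 48.2, 61.8 and 41.0 CPM at 0 h. The 1 h libraries all lay above the 0 h libraries, and the difference was log2 0.70 (interval 0.10 to 1.30, adjusted p = 0.845). At 2 h Ccl2 had 68.1, 69.0 and 35.2 CPM, which overlapped the values at 0 h (log2 0.22, interval -0.38 to 0.82).

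All 6 tested members had positive log2 values in MEF at 1 h, with a median of 0.61 beside 0.01 over all genes tested. The share of all genes with positive values is not given here, so counts of signs in members or regulators have no background. Ccl7 (7.44, 4.65 and 5.16 CPM at 1 h, against 3.52, 4.18 and 4.38 CPM at 0 h) and Ccl4 (33, 17 and 14 counts at 1 h, against 5, 12 and 11 counts at 0 h) also had groups that did not overlap, at log2 0.52 (interval -0.09 to 1.14) and log2 1.27 (interval 0.09 to 2.45). For Ccl2, Ccl7 and Ccl4, the share of all genes with groups apart in MEF is likewise not given. Ccl6 was at log2 0.92, Ccl5 at log2 0.26 and Ccl9 at log2 0.23, each with an interval that held 0. At 2 h against 1 h all 6 values were negative, with a median of -0.44 beside -0.02 over all genes, and none was called. This comparison uses the same 1 h libraries, so its signs are not independent of those at 1 h against 0 h. Of 17 regulators tested, 15 had positive values at 1 h (median 0.31) and 0 were called, with Nfkbia at log2 0.64 (SE 0.12, adjusted p = 0.566) and Tnfaip3 at log2 0.62 (SE 0.12, adjusted p = 0.566). Nfkbia had 191, 206 and 164 CPM at 1 h, against 114, 136 and 111 CPM at 0 h.

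Other measures also differed among the MEF libraries, though not in step with every member. The first 1 h library held the highest level of Ccl4, Ccl5, Ccl6, Ccl7 and Ccl9 among the MEF libraries and 15 of the 37 Ccl3 counts, and its summed macrophage markers were 78.1 CPM, against 50.6 and 46.1 CPM in the other 1 h libraries and 41.5 to 55.5 CPM at 0 h. Without it, the difference at 1 h was log2 0.13 for Ccl5, 0.33 for Ccl6, 0.06 for Ccl9, 0.30 for Ccl7 and 0.81 for Ccl4, and log2 0.81 for Ccl2. The correlation across genes between gene length and deviation from the mean was 0.03, -0.37 and -0.43 in the 1 h libraries, against -0.02, -0.06 and 0.20 at 0 h, and the coding transcripts of the 9 genes are 511 to 3006 bases long. With a length trend removed from each library, Ccl2 was at log2 0.59 and Ccl7 at log2 0.41. The part of either measure in the MEF values was not tested further.

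In MAEC 7 members were tested (not Ccl3 or Ccl4) and edgeR called 0 of them at 1 h, 0 at 2 h and 0 between 2 h and 1 h, as it called 0% of all 14779 genes in each, with 733, 1360 and 293 genes at an unadjusted p below 0.05. DESeq2 called 1 gene lower at 1 h, 15 higher and 7 lower at 2 h, and 4 higher and 2 lower between 2 h and 1 h, and limma-voom called 0 in each, with no member among them. Ccl9 alone of the members reached an unadjusted p below 0.05, at 1 h and at 2 h. Its 0 h group did not overlap either group with ImP, while the 1 h and 2 h groups overlapped each other. It had 9.73, 10.7 and 13.5 CPM at 1 h, then 10.8, 12.4 and 12.9 CPM at 2 h, against 6.36, 8.51 and 8.0 CPM at 0 h, so that all 6 libraries with ImP lay above all 3 without. The differences were log2 0.53 at 1 h (interval 0.02 to 1.03, adjusted p = 0.826) and log2 0.62 at 2 h (interval 0.11 to 1.12, adjusted p = 0.539), and the 2 share the 0 h libraries. With a length trend removed from each library these were log2 0.532 and 0.633. The share of all genes whose 0 h libraries lay apart in this way in MAEC is not given either. Summed macrophage markers were 55.4 to 58.5 CPM in MAEC at 1 h and 49.5 to 63.3 CPM at 2 h, against 54.8 to 82.1 CPM at 0 h. None of 17 regulators, 3 receptors and 3 other CC chemokines tested in MAEC was called at 1 h or 2 h.

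The abundant MAEC chemokines showed no such separation. Ccl2 had 464, 607 and 627 CPM at 1 h, then 470, 650 and 547 CPM at 2 h, against 472, 488 and 681 CPM at 0 h, differences of log2 0.00 (interval -0.39 to 0.39) and log2 -0.02 (interval -0.41 to 0.37). Ccl7 had 257, 343 and 344 CPM at 1 h, then 250, 302 and 297 CPM at 2 h, against 276, 297 and 429 CPM at 0 h (log2 -0.13 and -0.29). All groups of both genes overlapped, and a doubling lay outside each of these intervals. Ccl5, Ccl6, Ccl8 and Ccl11 were too rare in MAEC to be followed closely, with intervals at 2 h that ran, for Ccl5, between log2 -2.90 and 2.63. The coefficient of variation between libraries beyond counting error, estimated over all genes, was 0.326 in MAEC, against 0.126 in BMDM and 0.126 in MEF. Whether that spread is biological or technical cannot be told from the labels.

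**Figure D5:**
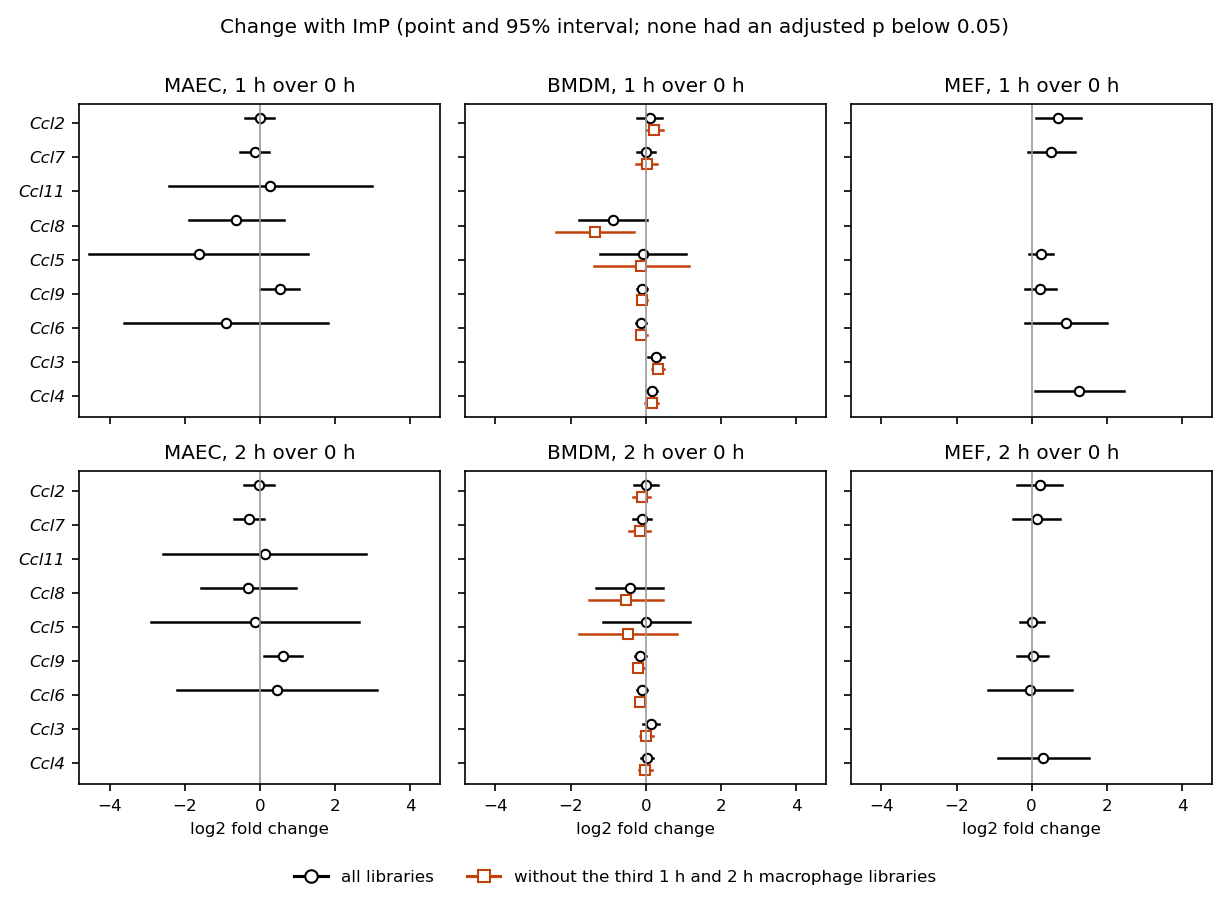
Log2 fold change of each tested CC chemokine gene at 1 h and 2 h with ImP over 0 h in MAEC, BMDM and MEF, with 95% intervals (circles use all libraries, squares leave out the third 1 h and 2 h macrophage libraries). Intervals are narrow for the abundant genes in BMDM, from -0.34 to 0.49 at most, and none of the values passed the adjusted threshold.

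The change with ImP was also compared between cell types by an interaction term. None of the 9 genes was called for MAEC minus MEF or for BMDM minus MEF at 1 or 2 h. All genes together gave 0% called in both MAEC comparisons, 0.00587% for BMDM minus MEF at 1 h and 0.0117% at 2 h. Without the third 1 h and 2 h macrophage libraries, 0.154% of genes were called for BMDM minus MEF at 1 h (0.148% higher, 0.00569% lower) and 0.0114% at 2 h, with 0 members in each. At an unadjusted p below 0.05 stood 1873 genes for MAEC minus MEF at 1 h and 1351 at 2 h, and 616 for BMDM minus MEF at 1 h and 372 at 2 h. DESeq2 called 55 genes higher and 26 lower for MAEC minus MEF at 1 h and 44 higher and 19 lower at 2 h, and for BMDM minus MEF 4 higher and 1 lower at 1 h and 3 higher and 1 lower at 2 h. The counts with limma-voom were 0 for MAEC minus MEF at both times and 1 higher for BMDM minus MEF at each, and neither tool called a member. Members are named where they averaged at least 1 CPM in both cell types. For MAEC minus MEF at 1 h, the difference was log2 -0.74 for Ccl2 (interval -1.36 to -0.13, adjusted p = 0.366), log2 -0.70 for Ccl7 (interval -1.36 to -0.04, adjusted p = 0.416), and log2 0.27 for Ccl9 (interval -0.17 to 0.71). At 2 h it was log2 -0.28 for Ccl2 and log2 -0.46 for Ccl7, with intervals that held 0, and log2 0.56 for Ccl9 (interval 0.12 to 0.999, adjusted p = 0.564). For BMDM minus MEF at 1 h, Ccl2 was at log2 -0.61 (interval -1.23 to 0.01), Ccl7 at -0.54, Ccl9 at -0.35 and Ccl5 at -0.34, all with an adjusted p of 1.00. At 2 h these were -0.25 for Ccl2, -0.26 for Ccl7, -0.20 for Ccl9 and -0.03 for Ccl5, each with an interval that held 0. These comparisons share the MEF libraries. They also share 1 fit, in which each gene has 1 estimate of spread for all cell types. Its coefficient of variation between libraries over all genes was 0.214, against 0.326 in MAEC alone and 0.126 in BMDM and MEF alone. Intervals for MAEC minus MEF, among them those that left out 0, may therefore be too narrow, and those for BMDM minus MEF too wide.

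The genes nearest to a member over the 9 libraries of 1 cell type were listed. Distance was the root mean square (RMS) difference of log2(CPM + 1) after each gene's mean was removed. How near the closest of so many candidates lie for a typical gene is not given, so these distances have no background. In MEF the nearest to Ccl2 were Nfkbia (RMS 0.195), Junb (0.204) and Smpd5 (0.221) of 11111 candidates, beside 0.426 for the deviation of Ccl2 from its own mean. The nearest to Ccl7 in MEF were Ccpg1os (0.142), Tsc22d3 (0.175) and Pnrc1 (0.179), beside 0.35. In BMDM, Ccl5 ran nearest to Nr6a1 (0.234), Cenpw (0.238) and Nudt6 (0.254), beside 0.410, and in MAEC Ccl8 ran nearest to Plxnd1 (0.166), Mnt (0.169) and Tcaim (0.171), beside 0.328. The other members varied by less than log2 1 within each cell type in which they averaged 1 CPM or more, and were not matched.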

How the data were processed

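RNA-seq libraries from 9 groups of 3 were analysed. The authors deposited estimated counts per gene symbol, all whole numbers, and the submitters' processing notes name RSEM, STAR and cutadapt, with mm10 and GRCm38.p6, but no settings. Levels are CPM of library totals, and levels compared between genes are CPM per kilobase of the longest coding transcript (GENCODE M21). Estimated counts were tested with edgeR 4.0.16 (quasi-likelihood, TMM scaling, filterByExpr with a minimum count of 10, Benjamini-Hochberg adjustment over all genes, two-sided), in 1 fit per cell type for times, 1 per pair of unstimulated cell types, and 1 over all 27 libraries for interactions. The scripts were tested on simulated data. DESeq2 1.42.0, limma 3.58.1, other scalings and filters, left-out libraries, a block and, chosen after seeing the data, removal of a length trend were alternatives. The members, gene lists, left-out macrophage libraries and tests were chosen with earlier results of these data known. All 9 members are named, with up to 4 genes of smallest p from each other list. Symbols matched the annotation for 97.12% of rows. Of 27 replicate pairs none agreed within sampling noise (lowest chi-square per degree of freedom 5.89). Intervals and floors on counts cover counting error only.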

Additional observations from a re-analysis of the deposited data

How the results depend on the processing

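Under every alternative run, 0 members were called in each time comparison and interaction, and members called between unstimulated cell types stayed called. Apart from left-out libraries, single members kept their direction and side of the threshold in 787 cases and turned sign in 31. The sign changes were all of uncalled values, and the cause was not tested. In BMDM at 2 h over 0 h, Ccl2 (0.00) was at 0.00397 with DESeq2, 0.00396 with RLE scaling, 0.00987 with library totals, 0.00118 with no filter, 4.14e-05 with a mean of at least 1 CPM, 0.00244 with the compared groups alone and 0.113 with the length trend removed. Without the third libraries, Ccl4 was at -0.0124 and Ccl5 at -0.472 at 2 h over 0 h, and Ccl5 at -0.353 and Ccl6 at -0.036 at 2 h over 1 h. In MAEC, Ccl2 at 1 h over 0 h was at -0.0112 (DESeq2), -0.0113 (RLE), -0.00853 (mean of at least 1 CPM) and -0.000729 (compared groups alone), and at 2 h over 0 h at 0.0221 (library totals). With the length trend removed, MAEC values at 2 h over 0 h were 0.212 for Ccl2, 0.315 for Ccl5, 0.0163 for Ccl7 and 0.135 for Ccl8, at 1 h over 0 h 0.0974 for Ccl7 and at 2 h over 1 h 0.0341 for Ccl2, and BMDM values were 0.0588 for Ccl5 at 1 h and 0.0451 for Ccl7 at 2 h. With limma-voom, Ccl5 was at 0.128 (BMDM, 1 h over 0 h), 0.146 (MAEC, 2 h over 0 h) and 0.117 (BMDM minus MEF, 2 h), and with library totals at 0.0401 for the last and -0.0133 for MEF at 2 h over 0 h.

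Leaving out each library in turn turned the sign of 67 uncalled values. The ranges over left-out libraries were as follows. For BMDM 1 h over 0 h, Ccl2 -0.0487 to 0.223, Ccl5 -0.483 to 0.28, Ccl7 -0.0946 to 0.127. For BMDM 2 h over 0 h, Ccl2 -0.111 to 0.073, Ccl4 -0.0126 to 0.0767, Ccl5 -0.472 to 0.36, Ccl7 -0.165 to 0.0278. For BMDM 2 h over 1 h, Ccl2 -0.223 to 0.0481, Ccl5 -0.409 to 0.35, Ccl6 -0.0357 to 0.0723, Ccl9 -0.0861 to 0.019. For MAEC 0 h over MEF 0 h, Ccl9 -0.233 to 0.0791. For MAEC 1 h over 0 h, Ccl11 -0.332 to 0.958, Ccl2 -0.115 to 0.222, Ccl6 -2.37 to 0.0418, Ccl7 -0.274 to 0.12. For MAEC 2 h over 0 h, Ccl11 -0.472 to 0.817, Ccl2 -0.162 to 0.198, Ccl5 -1.37 to 1.29, Ccl6 -0.00906 to 1.4, Ccl8 -0.647 to 0.176. For MAEC 2 h over 1 h, Ccl11 -0.379 to 0.242, Ccl2 -0.164 to 0.0886, Ccl9 -0.0135 to 0.234. For MEF 2 h over 0 h, Ccl4 -0.0142 to 0.498, Ccl5 -0.0472 to 0.126, Ccl6 -0.352 to 0.249, Ccl7 -0.151 to 0.427, Ccl9 -0.0724 to 0.243. For BMDM minus MEF at 2 h, Ccl5 -0.526 to 0.303, Ccl7 -0.558 to 0.0275. The single new call was Ccl5 in MAEC over BMDM at 0 h without the third MAEC library (log2 -2.49).

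The replicate block, by runs of library codes, left 0 members called in each comparison, with Ccl2 at 0.00747 (BMDM) and Ccl5 at 0.024 (MAEC) at 2 h over 0 h. The runs share only a number. Libraries of the same run correlated at -0.05 to 0.26 in MAEC, -0.41 to 0.14 in BMDM and -0.12 to 0.43 in MEF, and 5, 1 and 4 of 9 libraries were closest to their own run.

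Scaling over all 27 libraries multiplied CPM by 0.918 to 1.04 in MAEC, 1.13 to 1.18 in BMDM and 0.865 to 0.914 in MEF. Members with a few counts per library, and Ccl11 in BMDM and MEF, were limited by depth.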
